A study of Oryza sativa with 10 samples.

Results

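Expression of 8 rice loci encoding fermentation enzymes was examined, 3 described as pyruvate decarboxylase (PDC), 3 as alcohol dehydrogenase (ADH) and 2 as lactate dehydrogenase (LDH), of 37869 annotated loci in all. They hold 10 of 41635 annotated transcripts. The loci were named one by one and had been selected on their FPKM in these same libraries, line against NT, so their values are given as a description without p-values. The question was whether 1 isozyme was higher where another of its class was lower. Fermentation lets flooded plant cells regenerate NAD+ when respiration lacks oxygen. PDC turns pyruvate into acetaldehyde, ADH reduces acetaldehyde to ethanol, and LDH reduces pyruvate to lactate. In rice, whose roots often grow in waterlogged soil, each step is encoded by several loci, and ADH1 is a classical gene of the response to low oxygen.

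RNA-Seq was performed on roots of 20-day-old rice of cultivar Illmi. The 4 transgenic groups expressed OsNAC5, OsNAC6, OsNAC9 or OsNAC10, transcription factors of the NAC family, fused to a 6MYC tag and driven by RCc3, a promoter active in roots. The labels write myc before the gene name for OsNAC5 and OsNAC9 and after it for OsNAC6 and OsNAC10. The methods give 1 form of construct for all, whereas a figure legend of the study names constructs with the tag on either side. The end that carries the tag and the gene expressed thus cannot be told apart. The control was non-transgenic Illmi (NT), and each of the 5 groups had 2 biological replicates. Plants were germinated on medium, moved to soil pots and kept in a greenhouse, and the labels speak of normal growth conditions. The methods of the study add that seedlings of all groups stood fully under water before the roots were taken, which for fermentation genes is a treatment that NT shares. One protocol label names 2-week-old seedlings in place of 20 days. Lines with the most tagged protein had been picked, and the number of lines sampled per group was not given. Differences from NT are thus differences between plant lines, and the 4 contrasts share the same NT libraries.

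Each library held 730218 to 789304 summed FPKM, and depth, as judged from the steps between the lowest values, ranged from 0.922 to 1.56 times that of NT replicate 1. Each OsNAC gene was higher in both libraries of its own line than in any other library, averaging 150 FPKM in OsNAC5 roots against 45.9 in NT, 126 in OsNAC6 roots against 96.5 in NT, 486 in OsNAC9 roots against 50.0 in NT and 34.9 in OsNAC10 roots against 27.2 in NT. These reads may come from the transgene and from the native locus alike. The root markers RCc3 (1660 to 2667 FPKM) and Lsi1, a silicon transporter (617 to 996 FPKM), were abundant in all 10 libraries, and 11 chlorophyll-binding or Rubisco small subunit loci summed to 6.45 to 8.83 FPKM. In whole roots, fewer cells of a type and less RNA per cell cannot be told apart. All 8 fermentation loci were above 0 FPKM in all 10 libraries.

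None of the 8 loci was called higher in any line, and 4 were called lower in all 4 lines. Those 4 were both PDC loci of chromosome 5, the LDH locus of chromosome 6 and the ADH2 locus of chromosome 11. A call means an unadjusted p under 0.05 in a limma fit across 29915 loci together with a change of at least 1.5 fold on the log2(FPKM + 1) scale. Of the 8 members, 5 were called lower in OsNAC5 roots, where 3.28% of all tested loci were, and 6 in OsNAC6, where 7.6% were. In OsNAC9, 4 of 8 were called lower beside 5.55% of all loci, and in OsNAC10, 6 of 8 beside 10.4%. Across the 4 lines together, 1.95% of tested loci were called lower in every one. Without overlap, both line libraries lay below both NT libraries for 6 of 8 members in OsNAC5 roots (26.9% of all tested loci), 8 in OsNAC6 roots (30.1%), 7 in OsNAC9 roots (31.1%) and 7 in OsNAC10 roots (34.8%). The members were selected with these contrasts known, so nothing is read from the counts. The median log2 difference from NT over the 8 members was -0.71 in OsNAC5 roots, -1.48 in OsNAC6, -0.77 in OsNAC9 roots and -2.20 in OsNAC10, while over all tested loci it was between 0.01 and 0.02.

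**Figure D1:**
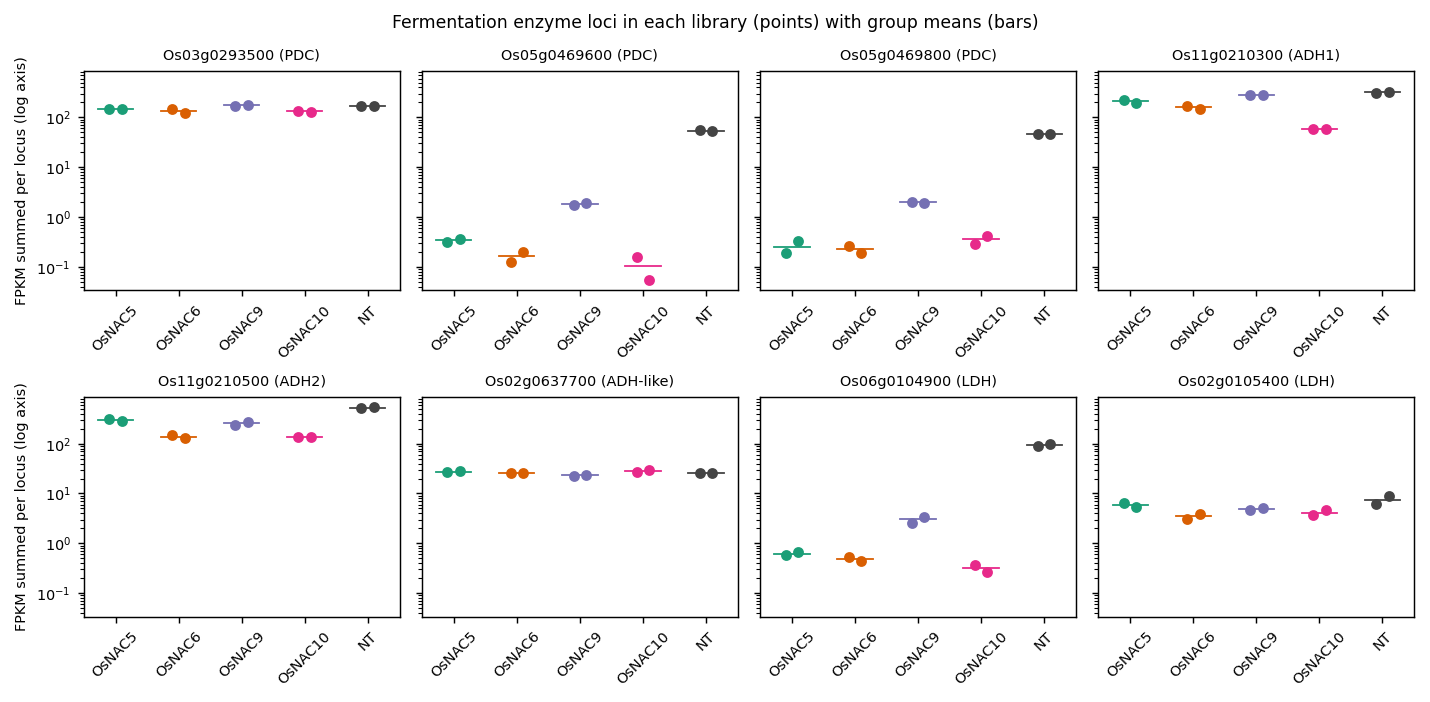
FPKM summed per locus (log axis) in each library (points) with the group mean (bars), for the 8 loci, with the OsNAC lines left of NT. Both PDC loci of chromosome 5 and the LDH locus Os06g0104900 lie between 45.6 and 97.4 FPKM in NT and at or below 3.45 FPKM in all 8 line libraries, whereas the group means of Os03g0293500 and Os02g0637700 span 1.32 and 1.24 fold.

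PDC, the enzyme that commits pyruvate to ethanol, was represented by 1 abundant locus that varied little and 2 neighbouring loci that were present in NT and close to nothing in the lines. Os03g0293500 on chromosome 3, described as similar to PDC isozyme 3, was the main source of PDC transcript in every library. It had 144 and 150 FPKM in OsNAC5 roots, 147 and 122 in OsNAC6, 169 and 179 in OsNAC9 roots and 132 and 131 in OsNAC10, against 166 and 172 FPKM in NT. OsNAC9 overlapped NT, and the other 3 lines lay below NT. Among these lines OsNAC6 overlapped both OsNAC5 and OsNAC10. The log2 difference from NT was -0.20 in OsNAC5 roots, -0.34 in OsNAC6, 0.04 in OsNAC9 roots and -0.36 in OsNAC10, each with an SE of 0.0949, and none of these reached 1.5 fold.

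Os05g0469600 on chromosome 5, a second PDC locus, had 0.322 and 0.359 FPKM in OsNAC5 roots, 0.128 and 0.196 in OsNAC6, 1.73 and 1.92 in OsNAC9 roots and 0.158 and 0.0537 in OsNAC10, against 54.7 and 53.3 FPKM in NT, where it made up 20.1% of the PDC sum. No line library came near NT, and OsNAC9 was higher than the other 3 lines, of which OsNAC6 and OsNAC10 overlapped. The line means were 0.631%, 0.300%, 3.38% and 0.196% of the NT mean for OsNAC5, OsNAC6, OsNAC9 and OsNAC10 in that order. On the log2(FPKM + 1) scale, which compresses such low values, the differences from NT were -5.36, -5.56, -4.28 and -5.64, with an SE of 0.0981.

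Os05g0469800, the remaining PDC locus, followed the same division. It had 0.185 and 0.325 FPKM in OsNAC5 roots, 0.260 and 0.186 in OsNAC6, 2.04 and 1.87 in OsNAC9 roots and 0.288 and 0.424 in OsNAC10, against 45.6 and 45.7 FPKM in NT. OsNAC9 again stood above the other lines, which lay between 0.185 and 0.424 FPKM and among which OsNAC5 overlapped both OsNAC6 and OsNAC10. The line means were 0.558%, 0.489%, 4.28% and 0.779% of NT in OsNAC5, OsNAC6, OsNAC9 and OsNAC10. The log2 differences from NT were -5.22, -5.25, -3.98 and -5.11, with an SE of 0.105.

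The neighbourhood of both PDC loci was inspected after their values had been seen. Os05g0469701 and Os05g0469812, annotated as hypothetical proteins, take the places between and after the PDC loci in the locus numbering. Os05g0469701 averaged 0.166 FPKM in OsNAC5 roots, 0.117 in OsNAC6, 1.04 in OsNAC9 roots and 0.0552 in OsNAC10, against 36.7 FPKM in NT. Os05g0469812 averaged 0.361 FPKM in OsNAC5 roots, 0.199 in OsNAC6, 1.30 in OsNAC9 roots and 0.258 in OsNAC10, against 34.7 FPKM in NT. All 4 consecutive loci thus split the libraries in the same way. The next expressed locus on the lower side, Os05g0468900, did not share the split, with 12.5 FPKM in OsNAC5 roots, 16.1 in OsNAC6, 11.9 in OsNAC9 roots and 10.9 in OsNAC10, against 9.10 FPKM in NT. How reads that fit several of these loci, or both strands, were assigned was not stated, so the hypothetical loci may share reads with the PDC genes.

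Summed over the 3 loci, PDC transcript was 148 ± 4.16 FPKM in OsNAC5 roots, 135 ± 18.0 in OsNAC6, 178 ± 7.19 in OsNAC9 roots and 132 ± 0.701 in OsNAC10, against 269 ± 3.16 FPKM in NT (SD, n = 2 each). The lines thus kept 55.0%, 50.1%, 66.2% and 49.1% of the NT level in the order OsNAC5, OsNAC6, OsNAC9 and OsNAC10. The chromosome 3 locus supplied 99.6% of the sum in OsNAC5 roots, 99.7% in OsNAC6, 97.9% in OsNAC9 roots and 99.7% in OsNAC10, against 62.9% in NT. Its share was larger in the lines although its own level overlapped NT in OsNAC9 and lay below NT in the other lines, because the other loci of the sum were close to 0.

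**Figure D2:**
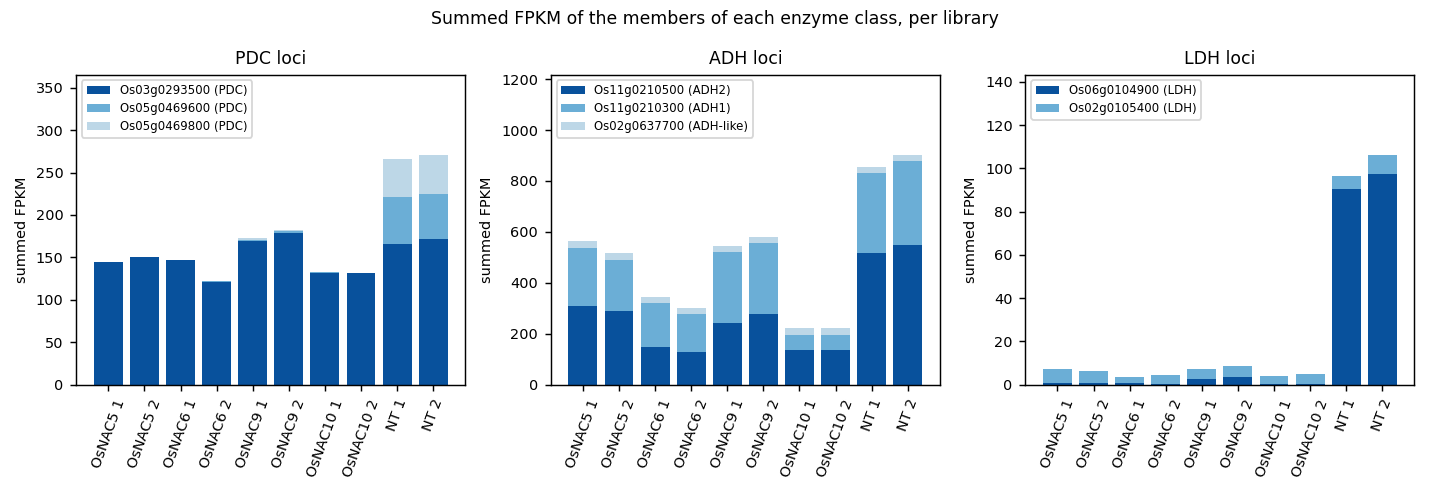
Summed FPKM per library (bars) for the PDC, ADH and LDH loci, each bar divided by locus, with the OsNAC lines left of NT. The NT bars exceed every line bar in all 3 classes, at 266 and 271 FPKM for PDC, 856 and 902 for ADH and 96.5 and 106 for LDH.

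ADH, which makes ethanol, was carried by a pair of abundant loci on chromosome 11 that were lower in the lines by unequal amounts, and by another locus on chromosome 2 whose total hardly moved. Os11g0210300 is ADH1. It had 228 and 197 FPKM in OsNAC5 roots, 171 and 148 in OsNAC6, 277 and 282 in OsNAC9 roots and 58.1 and 58.1 in OsNAC10, against 313 and 329 FPKM in NT. No groups overlapped, and the order from high to low was NT, OsNAC9, OsNAC5, OsNAC6 and OsNAC10. The log2 difference from NT was -0.59 in OsNAC5 roots, -1.01 in OsNAC6, -0.20 in OsNAC9 roots and -2.44 in OsNAC10, each with an SE of 0.0963, and OsNAC9 was not called. The call in OsNAC5 sat at the fold threshold and was lost without OsNAC5 replicate 2, where the difference was -0.49, and without NT replicate 2, where it was -0.56.

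Os11g0210500, known as ADH2, was the most abundant of the 8 loci in NT. It had 309.5 and 291 FPKM in OsNAC5 roots, 148 and 128 in OsNAC6, 243 and 275 in OsNAC9 roots and 137 and 136 in OsNAC10, against 518 and 548 FPKM in NT. All lines were below NT, OsNAC5 was above OsNAC9, and both were above OsNAC6 and OsNAC10, which overlapped. This division is also that of the written place of the myc tag, whose part in it was not tested. The log2 difference from NT was -0.83 in OsNAC5 roots, -1.94 in OsNAC6, -1.04 in OsNAC9 roots and -1.96 in OsNAC10, with an SE of 0.0992.

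The balance of ADH1 to ADH2 differed by line. The ratio of their FPKM was 0.735 and 0.679 in OsNAC5 roots, 1.15 and 1.16 in OsNAC6, 1.14 and 1.02 in OsNAC9 roots and 0.423 and 0.428 in OsNAC10, against 0.604 and 0.600 in NT. ADH1 was therefore the larger of the pair in OsNAC6 and OsNAC9 and the smaller in OsNAC5, OsNAC10 and NT. In OsNAC6 and OsNAC9 the shift came with less ADH2, not with more ADH1, and in OsNAC10 with an even lower ADH1. ADH1 and ADH2 lie close together and encode related proteins, so reads that fit both could be split between them by the quantification. The locus numbered just before ADH1, Os11g0210201, had means of 29.1 FPKM in OsNAC5 roots, 19.3 in OsNAC6, 17.7 in OsNAC9 roots and 7.95 in OsNAC10, against 32.8 FPKM in NT, and was looked at after the values had been seen.

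Os02g0637700, annotated as ADH-like, showed the smallest change of the ADH loci. Its sum was 26.6 and 28.5 FPKM in OsNAC5 roots, 25.4 and 25.8 in OsNAC6, 22.5 and 23.7 in OsNAC9 roots and 27.6 and 29.9 in OsNAC10, against 26.0 and 25.8 FPKM in NT. The groups lay within a narrow band, with OsNAC5 and OsNAC10 just above NT and OsNAC6 and OsNAC9 just below. The log2 differences from NT were 0.08, -0.01, -0.16 and 0.14 in OsNAC5, OsNAC6, OsNAC9 and OsNAC10, with an SE of 0.0755.

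Beneath this steady sum, the shares of the 2 transcripts of Os02g0637700 differed between the lines and NT. Os02t0637700-01, described as ADH-like, had 20.4 and 17.1 FPKM in OsNAC5 roots, 14.3 and 13.4 in OsNAC6, 13.7 and 16.1 in OsNAC9 roots and 12.6 and 12.0 in OsNAC10, against 21.2 and 20.7 FPKM in NT. Os02t0637700-02, described as similar to ADH1, had 6.16 and 11.5 FPKM in OsNAC5 roots, 11.1 and 12.4 in OsNAC6, 8.86 and 7.67 in OsNAC9 roots and 15.1 and 17.9 in OsNAC10, against 4.78 and 5.16 FPKM in NT. Every line library was below both NT libraries for the transcript ending in 01 and above both for the one ending in 02. The 02 transcript made up 31.6% of the locus in OsNAC5 roots, 45.9% in OsNAC6, 35.8% in OsNAC9 roots and 57.2% in OsNAC10, against 19.2% in NT, and it was the larger of the 2 by group mean in OsNAC10 alone. Such shares depend on how overlapping transcripts were resolved upstream, and the OsNAC5 libraries differed from each other, at 23.2% and 40.1%.

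The transcripts of ADH1 were lower by like amounts in OsNAC10 and by unequal amounts in OsNAC9. Os11t0210300-02, the larger of the 2, had 166 and 137 FPKM in OsNAC5 roots, 124 and 109 in OsNAC6, 209 and 208 in OsNAC9 roots and 39.2 and 41.1 in OsNAC10, against 215 and 224 FPKM in NT. Os11t0210300-01 had 62.0 and 60.1 FPKM in OsNAC5 roots, 46.2 and 39.6 in OsNAC6, 68.0 and 74.5 in OsNAC9 roots and 18.8 and 17.0 in OsNAC10, against 97.7 and 104 FPKM in NT. In OsNAC10 the log2 difference from NT was -2.42 for the 02 transcript and -2.43 for the 01 transcript, while in OsNAC9 it was -0.07 and -0.50. Both were lowest in OsNAC10, and the 02 transcript held 67.5% to 75.4% of the locus in every library.

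**Figure D3:**
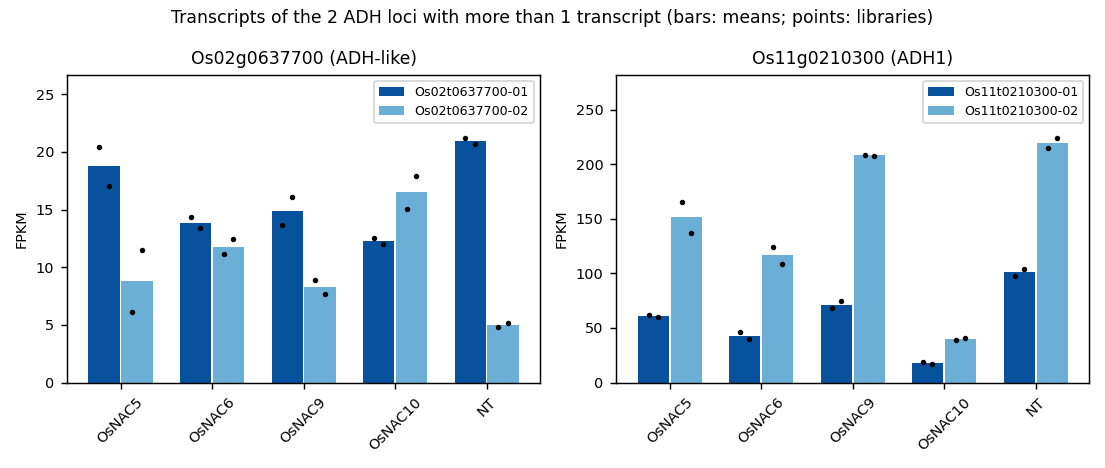
FPKM of each transcript of Os02g0637700 and of ADH1 (Os11g0210300), as group means (bars) and libraries (points), with the OsNAC lines left of NT. At Os02g0637700 the 02 transcript exceeds the 01 transcript in OsNAC10 (means 16.5 and 12.3 FPKM), whereas in NT the 01 transcript is larger (20.9 and 4.97 FPKM).

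Summed over the 3 loci, ADH transcript was 540 ± 33.2 FPKM in OsNAC5 roots, 323 ± 30.1 in OsNAC6, 562 ± 27.7 in OsNAC9 roots and 223 ± 0.516 in OsNAC10, against 879 ± 32.5 FPKM in NT (SD, n = 2 each). These are 61.4%, 36.7%, 63.9% and 25.4% of the NT mean for OsNAC5, OsNAC6, OsNAC9 and OsNAC10. The small locus Os02g0637700 supplied 12.9% of the sum in OsNAC10, against 2.95% in NT, at a nearly equal level of its own. Relative to PDC, the ADH sum was 3.89 and 3.43 times as large in OsNAC5 roots, 2.34 and 2.48 times in OsNAC6, 3.14 and 3.18 times in OsNAC9 roots and 1.68 and 1.70 times in OsNAC10, against 3.21 and 3.33 times in NT.

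LDH, which forms lactate from pyruvate, had the most lopsided change. Os06g0104900 on chromosome 6, described as similar to LDH-B, had 0.575 and 0.662 FPKM in OsNAC5 roots, 0.525 and 0.438 in OsNAC6, 2.61 and 3.45 in OsNAC9 roots and 0.362 and 0.266 in OsNAC10, against 90.2 and 97.4 FPKM in NT. No groups overlapped, and OsNAC9 was again the line closest to NT, at 3.23% of it, while OsNAC5 held 0.659%, OsNAC6 0.513% and OsNAC10 0.334%. The order of the last 3 lines is not firm, since all their values were under 1 FPKM. The log2 differences from NT were -5.87 in OsNAC5 roots, -4.56 in OsNAC9 roots and -6.17 in OsNAC10, with OsNAC6 between OsNAC5 and OsNAC10, and had an SE of 0.126. The loci nearest to it in the numbering were inspected after the values had been seen. Os06g0105100, described as similar to legumain, was barely expressed but also highest in NT, averaging 0.0329 FPKM in OsNAC5 roots, 0.0145 in OsNAC6, 0.0234 in OsNAC9 roots and 0.0181 in OsNAC10, against 0.335 FPKM in NT. Os06g0104400, the nearest abundant locus, did not share the pattern and averaged 113 FPKM in OsNAC5 roots, 126 in OsNAC6, 115 in OsNAC9 roots and 108 in OsNAC10, against 94.5 FPKM in NT.

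Os02g0105400 on chromosome 2, described as similar to LDH-A, was a minor locus in NT. It had 6.58 and 5.42 FPKM in OsNAC5 roots, 3.14 and 3.81 in OsNAC6, 4.75 and 5.18 in OsNAC9 roots and 3.71 and 4.56 in OsNAC10, against 6.23 and 8.79 FPKM in NT. OsNAC5 overlapped NT and the other lines lay below both NT libraries. The log2 difference from NT was -0.27 in OsNAC5 roots, -0.92 in OsNAC6, -0.50 in OsNAC9 roots and -0.72 in OsNAC10, with an SE of 0.173. It was called lower in OsNAC6 and OsNAC10. The NT libraries differed from each other here, and without NT replicate 2 the call in OsNAC10 was lost, at -0.50, while without NT replicate 1 OsNAC9 was also called, at -0.72.

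Together the LDH loci summed to 6.62 ± 0.758 FPKM in OsNAC5 roots, 3.96 ± 0.415 in OsNAC6, 7.99 ± 0.895 in OsNAC9 roots and 4.45 ± 0.534 in OsNAC10, against 101 ± 6.88 FPKM in NT (SD, n = 2 each). The lines kept 6.53%, 3.90%, 7.89% and 4.39% of NT, in the order OsNAC5, OsNAC6, OsNAC9 and OsNAC10. The LDH-A locus made up 90.5% of the sum in OsNAC5 roots, 87.7% in OsNAC6, 62.3% in OsNAC9 roots and 92.8% in OsNAC10, against 7.37% in NT, but its mean was not higher in any line. Among the 8 members, in none of the 3 classes was a lower isozyme matched by one called higher. The members were selected on these same contrasts, which may have shaped this outcome, so it describes these loci and does not test replacement. The largest positive difference among the 8 loci was the 0.14 of Os02g0637700 in OsNAC10, whose 28.8 FPKM, against 25.9 FPKM in NT, stood beside an ADH sum of 223 FPKM, against 879 FPKM in NT.

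**Figure D4:**
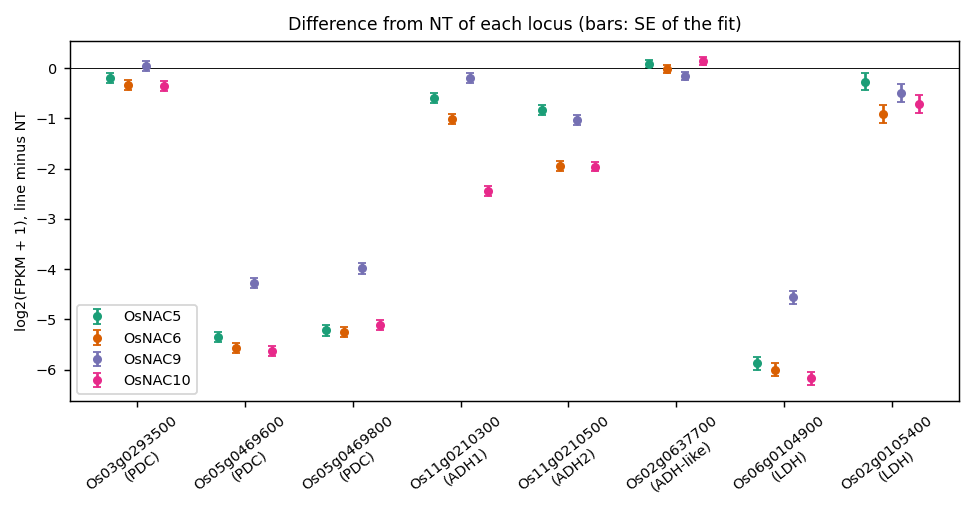
Difference from NT of log2(FPKM + 1) for each of the 8 loci and each OsNAC line (points) with the SE of the limma fit (bars). The PDC pair of chromosome 5 and Os06g0104900 form a group between -6.17 and -3.98, ADH1 and ADH2 lie between -2.44 and -0.20, and the other 3 loci lie between -0.92 and 0.14.

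Over the 10 libraries the near-lost loci tracked each other closely, which with 2 NT libraries far from the other 8 is mostly the split between NT and lines. Pearson's r of log2(FPKM + 1) was 0.999 between Os05g0469600 and Os06g0104900, 0.997 between Os05g0469600 and Os05g0469800 and 0.997 between Os05g0469800 and Os06g0104900. ADH1 and ADH2 gave 0.79. Os02g0637700 was the exception, with negative values against all other members, from -0.66 to -0.02. All points share the same libraries and the same NT.

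Loci most like each of the strongly varying members were found by the same coefficient among loci averaging at least 5 FPKM. For Os05g0469600 these were Os08g0518900, a chitinase (0.999), Os10g0204400, described as phosphoenolpyruvate carboxykinase (0.999), and the neighbour Os05g0469812 (0.998). For Os05g0469800 they were Os11g0530600, a chalcone synthase (0.998), Os10g0451900, a subtilisin-type peptidase (0.998), and Os08g0518900 (0.997). For Os06g0104900 they were Os11g0530650, a hypothetical protein (0.999), Os08g0518900 (0.999) and Os10g0204400 (0.998). Os08g0518900, which these lists have in common, averaged 2.55 FPKM in OsNAC5 roots, 1.97 in OsNAC6, 6.30 in OsNAC9 roots and 2.16 in OsNAC10, against 96.6 FPKM in NT. For ADH1 the closest were Os03g0406001, a non-protein-coding transcript (0.987), Os01g0348000, a papain-like cysteine proteinase (0.983), and Os12g0150200, a cytochrome P450 of the CYP94 family (0.983).

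Among the other loci with fermentation words in their descriptions, loci were called in both directions in every line. There were 57, of which 52 could be tested. Of the 57, 37 were described with the word cinnamyl, sinapyl, allyl, short-chain or quinonprotein. Such words can also name a domain, as at Os01g0254100, described by several motifs of which one is quinonprotein alcohol dehydrogenase-like. Called higher were 2 in OsNAC5 roots, 4 in OsNAC6, 3 in OsNAC9 roots and 2 in OsNAC10, where 2.39%, 5.81%, 5.06% and 5.04% of all tested loci were called higher. With so few loci, these counts lie near those shares. Called lower were 3, 8, 3 and 8 in OsNAC5, OsNAC6, OsNAC9 and OsNAC10, where 3.28%, 7.6%, 5.55% and 10.4% of all tested loci were, and the 3 in OsNAC9 are close to that share. Only 2 further loci are described as PDC, and the larger, Os01g0160100, averaged 2.96 FPKM in OsNAC5 roots, 3.28 in OsNAC6, 3.55 in OsNAC9 roots and 2.10 in OsNAC10, against 3.82 FPKM in NT. No further locus is described as LDH. The loci called higher are not named here, so these counts do not tell whether an ADH outside the 8 members was higher. Of the 31 loci averaging at least 5 FPKM, values are given only for Os04g0612700. This locus was singled out after its values were seen and does not stand for the list, in which others were called higher. Os04g0612700 is described as a cinnamyl alcohol dehydrogenase, an enzyme of lignin synthesis. It had 0.0495 and 0 FPKM in OsNAC5 roots, 0 and 0.0694 in OsNAC6, 0.414 and 0.663 in OsNAC9 roots and 0 and 0.0238 in OsNAC10, against 32.9 and 31.4 FPKM in NT, and was not tested because of its zeros.

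Glycolysis supplies the pyruvate that fermentation uses. Of 83 glycolytic loci found by description, 75 were tested. Called lower were 4 in OsNAC5 roots, 10 in OsNAC6, 8 in OsNAC9 roots and 15 in OsNAC10, where 3.28%, 7.6%, 5.55% and 10.4% of all tested loci were called lower, and called higher were 2, 0, 1 and 1, beside 2.39%, 5.81%, 5.06% and 5.04%. Of the 4608 calls over all loci in OsNAC10, 3099 were lower. The median log2 difference over the tested glycolytic loci was 0.02 in OsNAC5 roots, -0.05 in OsNAC6, -0.14 in OsNAC9 roots and -0.04 in OsNAC10. Os05g0524400, a phosphofructokinase and thus at the first committed step, had 11.5 and 13.6 FPKM in OsNAC5 roots, 11.1 and 8.71 in OsNAC6, 12.5 and 15.7 in OsNAC9 roots and 6.82 and 7.24 in OsNAC10, against 32.1 and 32.7 FPKM in NT. Its log2 differences of -1.31, -1.62, -1.15 and -2.06 were each called, with Benjamini-Hochberg adjusted p from limma of 8.27e-04, 1.67e-04, 1.12e-03 and 3.90e-05. Os12g0189300, a pyruvate kinase, had 7.90 and 7.45 FPKM in OsNAC5 roots, 13.0 and 11.1 in OsNAC6, 8.64 and 6.03 in OsNAC9 roots and 16.8 and 15.0 in OsNAC10, against 24.8 and 23.0 FPKM in NT. It was called lower in OsNAC5, OsNAC6 and OsNAC9, at -1.52, -0.93 and -1.59 (limma adjusted p of 4.73e-04, 3.37e-03 and 2.58e-04), and in OsNAC10 the difference was -0.56.

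A list of enzymes around phosphoenolpyruvate, pyruvate and malate, found by description, had 49 loci, 44 of them tested. It also holds malate dehydrogenases such as Os01g0649100, and Os01g0276100, described as an isopropylmalate dehydrogenase. Called lower were 5 in OsNAC5 roots, 7 in OsNAC6, 6 in OsNAC9 roots and 8 in OsNAC10, and called higher 1, 2, 1 and 2, beside the shares of all tested loci given for glycolysis. For OsNAC10 these were 10.4% lower and 5.04% higher, and for OsNAC5 3.28% and 2.39%. The median log2 difference was between -0.17 and -0.08 in the 4 lines. Os03g0432100, described as pyruvate, phosphate dikinase 2, which can convert pyruvate back to phosphoenolpyruvate, had 6.47 and 6.41 FPKM in OsNAC5 roots, 4.78 and 5.35 in OsNAC6, 17.3 and 17.2 in OsNAC9 roots and 15.4 and 15.2 in OsNAC10, against 280 and 290 FPKM in NT. Its log2 differences of -5.27, -5.56, -3.97 and -4.13 carried limma adjusted p of 2.28e-08, 1.44e-08, 8.39e-08 and 3.42e-08. Os10g0204400, the phosphoenolpyruvate carboxykinase named above, had 3.46 and 3.24 FPKM in OsNAC5 roots, 2.36 and 2.02 in OsNAC6, 8.15 and 7.38 in OsNAC9 roots and 2.27 and 2.30 in OsNAC10, against 198 and 196 FPKM in NT. Its differences of -5.51, -5.96, -4.50 and -5.91 were called in each line (limma adjusted p of 3.03e-08, 1.59e-08, 9.36e-08 and 2.66e-08). Os04g0517500, a kinase that activates phosphoenolpyruvate carboxylase, went the other way, at 21.9 and 26.8 FPKM in OsNAC5 roots, 27.8 and 27.3 in OsNAC6, 23.8 and 25.6 in OsNAC9 roots and 27.3 and 28.9 in OsNAC10, against 16.0 and 12.4 FPKM in NT. It was called higher in all 4 lines, by 0.74, 0.92, 0.77 and 0.95 (limma adjusted p of 0.0110, 1.86e-03, 5.40e-03 and 1.37e-03), and without NT replicate 2 the OsNAC5 call was lost, at 0.57.

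**Figure D5:**
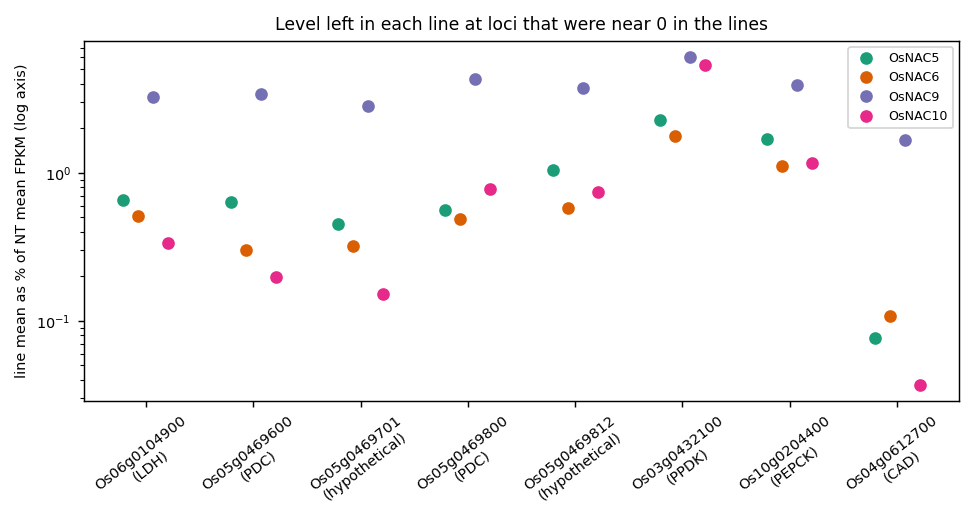
Mean FPKM of each OsNAC line as a percent of the NT mean (log axis, points) for LDH Os06g0104900, the PDC pair of chromosome 5 with its interleaved hypothetical loci, pyruvate, phosphate dikinase (PPDK), phosphoenolpyruvate carboxykinase (PEPCK) and the cinnamyl alcohol dehydrogenase Os04g0612700 (CAD). OsNAC9 kept the most at each of the 8 loci, for example 3.23% at Os06g0104900 and 1.68% at Os04g0612700.

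Alanine and GABA are further products that plants without oxygen form. Of 12 alanine aminotransferase and glutamate decarboxylase loci, 9 were tested. Called lower were 2 in OsNAC5 roots, 3 in OsNAC6, 3 in OsNAC9 roots and 3 in OsNAC10. Called higher were 3 in OsNAC5 and 0 in the other lines. Of all tested loci, 3.28%, 7.6%, 5.55% and 10.4% were called lower in OsNAC5, OsNAC6, OsNAC9 and OsNAC10. The shares called higher were 2.39%, 5.81%, 5.06% and 5.04%. Os03g0236200, glutamate decarboxylase 3, which makes GABA, had 15.7 and 15.8 FPKM in OsNAC5 roots, 19.7 and 14.7 in OsNAC6, 16.6 and 18.4 in OsNAC9 roots and 11.1 and 11.4 in OsNAC10, against 30.0 and 30.9 FPKM in NT. It was called lower in all 4 lines, at -0.91, -0.81, -0.77 and -1.37 (limma adjusted p of 2.91e-03, 2.77e-03, 4.29e-03 and 1.69e-04). Os10g0390500, described by its pyridoxal phosphate transferase domain, was also called lower in each line, at means of 123 FPKM in OsNAC5 roots, 101 in OsNAC6, 124 in OsNAC9 roots and 108 in OsNAC10, against 213 FPKM in NT, and differences of -0.79, -1.08, -0.77 and -0.97.

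Aldehyde dehydrogenases, which can oxidise the acetaldehyde that PDC makes, were 24 loci with 21 tested, a list that also holds semialdehyde dehydrogenases. Called higher was 1 in each line, and called lower 1 in OsNAC5 roots, 1 in OsNAC6, 2 in OsNAC9 roots and 4 in OsNAC10. Among all tested loci, 2.39%, 5.81%, 5.06% and 5.04% were called higher in OsNAC5, OsNAC6, OsNAC9 and OsNAC10. The shares called lower were 3.28%, 7.6%, 5.55% and 10.4%. Os02g0730000, the mitochondrial enzyme ALDH2a, had 9.79 and 10.8 FPKM in OsNAC5 roots, 7.47 and 4.34 in OsNAC6, 16.6 and 21.9 in OsNAC9 roots and 3.03 and 2.53 in OsNAC10, against 2.87 and 3.15 FPKM in NT. It was called higher in OsNAC5, OsNAC6 and OsNAC9, at 1.49, 0.75 and 2.32 (limma adjusted p of 3.77e-03, 0.0352 and 2.33e-04), while OsNAC10 overlapped NT at -0.09. Without OsNAC6 replicate 1 the OsNAC6 call was lost, at 0.42.

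Haemoglobins and loci with submergence or hypoxia words served as a view of the wider low-oxygen response. Of 6 haemoglobin loci tested, 1 was called higher in OsNAC5 roots, 0 in OsNAC6, 1 in OsNAC9 roots and 2 in OsNAC10, and 2, 1, 0 and 1 were called lower. Of 7 submergence or hypoxia loci, called lower were 2 in OsNAC5 roots, 2 in OsNAC6, 1 in OsNAC9 roots and 1 in OsNAC10. Only 1 was called higher, in OsNAC9. The median log2 difference over the haemoglobin loci was 0.19, 0.16, 0.24 and 0.24 in OsNAC5, OsNAC6, OsNAC9 and OsNAC10. Over the submergence or hypoxia loci it was -0.15, -0.25, 0.0036 and -0.47, so the 2 lists did not move alike. Beside these counts, 3.28%, 7.6%, 5.55% and 10.4% of all tested loci were called lower in OsNAC5, OsNAC6, OsNAC9 and OsNAC10. The shares called higher were 2.39%, 5.81%, 5.06% and 5.04%. Os07g0673900, which carries a domain named for hypoxia induction, had 33.9 and 32.2 FPKM in OsNAC5 roots, 33.5 and 27.6 in OsNAC6, 43.5 and 47.0 in OsNAC9 roots and 34.4 and 36.8 in OsNAC10, against 71.1 and 74.6 FPKM in NT, and was called lower in all 4 lines, at -1.12, -1.24, -0.68 and -1.01 (limma adjusted p of 2.57e-04, 9.94e-05, 2.72e-03 and 2.48e-04). Over all these lists, 29 of 213 tested loci were called in OsNAC5 roots, 39 in OsNAC6, 31 in OsNAC9 roots and 48 in OsNAC10, in either direction, which is 13.6%, 18.3%, 14.6% and 22.5%, beside 5.66%, 13.4%, 10.6% and 15.4% of all tested loci.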

How the data were processed

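Roots of 4 OsNAC lines and NT (2 libraries each) were profiled by strand-specific RNA-Seq. Following the study's methods, reads were trimmed, cleared of PCR duplicates and mapped with TopHat to the RAP-DB annotation of IRGSP 1.0, and the authors deposited FPKM values per transcript. Cufflinks is named for calls of changed genes, and whether it made the FPKM values, its version, that of TopHat and the counting strand are not given in the sources used here. FPKM keep no read numbers, so precision rests on the spread between libraries, 2 per group. The fit pools that spread over the 5 groups and moderates it across loci, so a p-value does not measure the spread of any single group.

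FPKM were summed per locus and taken as log2(FPKM + 1), and fold changes on this scale understate changes of low loci. The 29915 loci above 0 in all 10 libraries were fitted with limma 3.58.1 in R 4.3.3 (all 5 groups in 1 fit, eBayes with trend, two-sided), a procedure tested on simulated data. A call was an unadjusted p under 0.05 and at least 1.5 fold, and p-values were adjusted over all tested loci by Benjamini-Hochberg. Unused sample columns numbered 0. The locus numbers gave the chromosome, and 0 of 8 member loci matched the RefSeq gene table by identifier.

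Members and lists were chosen with earlier results of these data known. Besides the 8 members and the 4 OsNAC loci, the rule named fermentation-word loci averaging at least 5 FPKM. These are given as counts, with values only for Os04g0612700. The rule also took up to 2 loci per list and direction called in at least 3 lines with that mean. Last came the 3 loci most correlated with each member whose group means spanned at least 4 fold. Alternatives were another pseudocount, filters, fold threshold, scaling, the main transcript, line and NT libraries alone, a replicate block, no trend and leaving out each library.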

Additional observations from a re-analysis of the deposited data

Results flagged for a closer look

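At 4 loci of the pathway lists a line called higher and a line called lower than NT differed from each other. Os08g0120600, a cytoplasmic fructose-bisphosphate aldolase, had 4.18 and 5.65 FPKM in OsNAC10 and 288 and 353 FPKM in OsNAC5, with 38.2 and 40.0 FPKM in NT, and OsNAC10 minus OsNAC5 was -5.77 on the log2(FPKM + 1) scale (limma adjusted p of 2.07e-06). Os03g0183600, an alanine aminotransferase, had 1.52 and 1.32 FPKM in OsNAC10 and 38.8 and 40.8 FPKM in OsNAC5, with 3.56 and 3.64 FPKM in NT, a difference of -4.08 (limma adjusted p of 2.07e-06). Os03g0226200, the haemoglobin rHb2, had 59.0 and 61.8 FPKM in OsNAC10 and 383 and 449 FPKM in OsNAC9, with 135 and 157 FPKM in NT, a difference of -2.76 (limma adjusted p of 8.99e-06). Os02g0171100, described as glyceraldehyde-3-phosphate dehydrogenase, had 13.6 and 13.5 FPKM in OsNAC10 and 33.6 and 36.2 FPKM in OsNAC5, with 21.9 and 20.5 FPKM in NT, a difference of -1.30 (limma adjusted p of 6.54e-05). Its call against NT in OsNAC10 was lost under median centring, quantile normalization and without NT replicate 1.

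Among the members, the summed level of Os02g0637700 was above both NT libraries in both OsNAC10 libraries and below them in both OsNAC9 libraries. In the limma fit OsNAC10 minus OsNAC9 was 0.30 on the log2 scale with an SE of 0.0755, under 1.5 fold and so not called.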

How the results depend on the processing

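Signs under the alternatives were compared for the members, the class sums and the named loci of the pathway lists, not for all called loci. No called difference of a member and no class sum difference changed sign, nor did any named list locus whose call was gained or lost. Small differences that were not called did, among the members at Os02g0637700 in OsNAC6 under centring (0.03) and quantile normalization (0.0048) and, with its main transcript, in OsNAC5 (-0.16) and OsNAC10 (-0.73), and at Os03g0293500 in OsNAC9 under quantile normalization (-0.08) and without OsNAC9 replicate 2 (-6.25e-04). With a pseudocount of 0.1, loci called numbered 2902 in OsNAC5, 6068 in OsNAC6 and 4940 in OsNAC9, and at 2 fold 616, 1098, 936 and 1495 in OsNAC5, OsNAC6, OsNAC9 and OsNAC10, against 1694, 4011, 3172 and 4608. At 2 fold, 9, 13, 12 and 26 loci of the pathway lists were called, against 29, 39, 31 and 48, and 3, 5, 4 and 5 members, against 5, 6, 4 and 6. Apart from the fold threshold and the leave-out fits named beside the loci, the count of members called lower did not change. Centring on the median moved the share of calls that were higher in OsNAC10 to 47.9%, against 32.7%.

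The PDC sum differed from NT by -0.69 in OsNAC9 and -1.15 in OsNAC10 under quantile normalization and by -0.93 in OsNAC10 under centring. The ADH sum differed by -0.82, -1.63, -0.78 and -2.16 in OsNAC5, OsNAC6, OsNAC9 and OsNAC10 under quantile normalization, and in OsNAC10 by -1.89 under centring and -2.03 with main transcripts. The LDH sum differed by -4.65 in OsNAC6 and -4.48 in OsNAC10 with a pseudocount of 0.1. Shares under quantile normalization were 99.6% for Os03g0293500 in OsNAC10 and 63.9% in NT, and 26.4% for ADH1 in OsNAC10 and 36.1% in NT. With main transcripts, ADH1 held 32.1%, 43.4%, 43.2% and 21.3% in OsNAC5, OsNAC6, OsNAC9 and OsNAC10, against 28.4% in NT. The causes were not tested.

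Leaving out 1 library gave 1690 to 2022 called loci in OsNAC5, 3820 to 5336 in OsNAC6, 3017 to 3533 in OsNAC9 and 4167 to 4984 in OsNAC10, with the remaining library of the group assumed to vary like the others, and 25 to 32, 32 to 47, 31 to 34 and 45 to 51 pathway-list loci. The PDC sum then differed from NT by -0.89 to -0.83 in OsNAC5, -1.13 to -0.86 in OsNAC6, -0.63 to -0.55 in OsNAC9 and -1.03 to -1.01 in OsNAC10. The ADH sum differed by -0.77 to -0.64, -1.54 to -1.35, -0.70 to -0.60 and -2.01 to -1.93, and the LDH sum by -3.85 to -3.65, -4.45 to -4.28, -3.61 to -3.41 and -4.33 to -4.13.

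The replicate numbers did not pair the samples in a steady way: deviations of equal numbers correlated at -0.52 to 0.33 over 10 pairs of groups, 3 of them over 0.1. Every pair with OsNAC6 was negative, at -0.27 with OsNAC5, -0.52 with OsNAC9, -0.13 with OsNAC10 and -0.08 with NT. Another pairing or a shared batch was not tested. A replicate block gave 1688, 3989, 3152 and 4600 called loci and 28, 38, 32 and 49 pathway-list loci. With 2 libraries per group, small differences such as those of Os02g0105400 rest on single libraries, and without read numbers levels under 1 FPKM cannot be ranked firmly.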
